A study of Mus musculus with 6 samples.

Results

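Aminoacyl-tRNA synthetases were examined as a gene family in MC38, a mouse tumour cell line labelled colon carcinoma, of C57Bl/6 background. Members were all array probes whose gene symbol follows the naming scheme of the synthetases, which gave 77 of 45281 probes and 35 of 19057 genes with a symbol. Of these, 19 genes were taken as cytosolic and 16, those whose names end in 2, as mitochondrial.

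Each synthetase joins one amino acid to its matching tRNA, which supplies the ribosome with charged tRNA. Most amino acids have separate enzymes for the cytosol and for the mitochondrion, both encoded in the nucleus, while Gars and Kars each encode both forms and are counted here as cytosolic. Many of the cytosolic genes are known targets of ATF4, the transcription factor that cells make when amino acids run short or the endoplasmic reticulum is stressed, and several cytosolic enzymes sit together in the multisynthetase complex.

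Cultures of 3 kinds were compared on 6 single-colour bead arrays, 2 arrays a group. Stimulated cells were kept 16 h in reduced serum and received S100A8/A9, a calcium-binding protein pair released by myeloid cells, at 10 µg/mL for 6 h. Unstimulated cells were kept 16 h in reduced serum with no S100A8/A9, and control cells were in normal medium with no treatment. Whether a group's replicates are separate cultures is not stated in the labels, and the p-values below then cover the spread between arrays alone, which may be technical. Since arrays of a group sat side by side on the 1 chip, group and chip position cannot be told apart. Bulk RNA does not tell less RNA per cell from fewer cells of a type.

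The arrays were alike in quality. Between 14877 and 16176 probes were detected on an array, the median signal lay between 90.2 and 97.4, and replicates correlated across genes with Pearson r of 0.991 to 0.992. Set against the label, 0 of 10 epithelial markers passed the detection filter, and no epithelial marker was detected on more than 1 array, whereas 7 of 9 mesenchymal markers passed it. Of the leukocyte markers, 5 of 8 had a probe and Cd14 alone passed. The mesenchymal markers moved with the medium as well: against control, 5 were higher and 1 lower in both the unstimulated and the stimulated cells. Of all genes tested, 17.1% were higher and 13.7% lower in unstimulated cells, and 15.9% and 13.2% in stimulated cells. Among these markers Col1a1, called higher, was detected on 3 arrays only, and Col1a2, the one called lower, on 4. Both calls thus rest in part on values near background. Their part in the synthetase results was not tested.

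Promoter sequences of the family are shown first, because ATF4 acts through short response elements in them. RefSeq windows (GRCm38.p6) of 250 bases before to 50 bases after the start of the gene were found for 26 of the 35 genes and for none of the other 9, which include Wars. The CARE core, TGATGNAA on either strand, was present in 5 of 26 windows, against 4.51% of the windows of 27025 genes. The windows with it were those of Aars, Gars, Iars, Tars and Yars. Counted from the start of the gene, the cores shown begin at 10 (Aars), -30 (Gars), 8 (Iars), -15 (Tars) and 4 (Yars). Those of Aars, Iars and Yars thus lie after the start. A further Aars core, at -112, is not shown. A site of each is shown with the core in capitals, in the orientation of the gene:
Aars, chr8:111033840-111033869, plus strand: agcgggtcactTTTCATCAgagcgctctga
Gars, chr6:55037960-55037989, plus strand: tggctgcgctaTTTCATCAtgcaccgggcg
Iars, chr13:49682126-49682155, plus strand: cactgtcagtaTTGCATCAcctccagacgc
Tars, chr15:11399655-11399684, minus strand: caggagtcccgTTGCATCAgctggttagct
Yars, chr4:129189895-129189924, plus strand: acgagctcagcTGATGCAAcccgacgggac

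A pair of further motifs was chosen after values of the genes had been seen. The E-box CACGTG, the site read by MYC, was in 5 of 26 windows (Aars, Ears2, Farsb, Iars, Tars), against 8.09% of all genes. The NRF1 motif, the GC-rich site of a factor that acts on many nuclear genes of mitochondrial proteins, was in 5 of 26 windows (Farsb, Iars2, Kars, Mars2, Tars), against 5.19% of all genes. With the 250 bases before the start alone, the counts were 3 for CARE, 3 for the E-box and 2 for NRF1, against 3.91%, 6.86% and 4.23% of all genes. In Tars an E-box and an NRF1 site lie side by side without overlap. These matches describe letters and say nothing of binding. The 100 bases before the start of the mitochondrial genes that were lower in both comparisons with control hold none of the 3 motifs, and the motifs of Ears2 and Mars2 lie after the start:
Mars2, chr1:55237077-55237176, plus strand: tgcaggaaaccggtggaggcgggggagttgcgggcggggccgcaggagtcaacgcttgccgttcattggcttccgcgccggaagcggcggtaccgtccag
Tars2, chr3:95754978-95755077, minus strand: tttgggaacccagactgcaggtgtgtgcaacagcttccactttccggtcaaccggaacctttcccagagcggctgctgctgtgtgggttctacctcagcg
Ears2, chr7:122067087-122067186, minus strand: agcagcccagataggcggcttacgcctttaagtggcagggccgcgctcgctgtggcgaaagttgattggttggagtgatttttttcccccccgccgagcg
Ears2 E-box, chr7:122067048-122067077, minus strand: cgcgaaggagccCACGTGtgtgtttctagt
Mars2 NRF1 motif, chr1:55237169-55237198, plus strand: ccgtccagctGCGCACGCGCcctttcccgt

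Most synthetase genes were measurable. A probe was called detected at a detection p below 0.01, and 52 of the 77 probes were detected on all 6 arrays, 20 on none and 5 on 1 to 5 arrays. Detection on at least 2 arrays was required for a test, which 30 of 35 genes passed: 18 of 19 cytosolic and 12 of 16 mitochondrial. Farsa, Hars2, Nars2, Wars2 and Yars2 did not pass. Wars2, the mitochondrial tryptophan enzyme, was at background on all of its 4 probes. Hars, the cytosolic histidine enzyme, passed on 2 arrays only, with signals of 110.1 and 100.3 in stimulated cells, 135.2 and 103.5 in unstimulated cells, and 110.6 and 106.7 in control cells, so its estimates rest on values near background. Signals of different probes are not compared with each other, since each probe has its own brightness.

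No change was called in any of the 30 synthetase genes when S100A8/A9 was added to serum-starved cells. With limma and Benjamini-Hochberg adjustment over all 8909 genes tested, 0 were called at an adjusted p below 0.05, and 0 had an unadjusted p below 0.05. Over all genes the same test called 0.0786%, of which 0.0786% were higher and 0% lower. The lowest adjusted p in the family was 0.681. Log2 fold changes ran from -0.28 to 0.29 with a median of 0.04, against -0.01 over all genes, and 19 estimates were above 0 and 11 below.

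The estimates farthest from 0 were small. Rars, the arginine enzyme of the multisynthetase complex, had normalized log2 intensities of 12.46 and 12.24 in stimulated cells, against 11.99 and 12.12 in unstimulated cells. Both stimulated arrays lay above both unstimulated ones, but with 2 arrays a group such separation carries little weight, here and below. The Rars difference was 0.29 ± 0.16 (log2, SE; n = 2 each; limma adjusted p = 0.681). Qars (0.27) and Yars (0.27), the glutamine and tyrosine enzymes, came next, and Kars (-0.28), Iars (-0.18) and Hars (-0.18) were at the other end. The 95% intervals of the 30 differences reached from -0.75 at the lowest limit to 0.65 at the highest.

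Between serum-starved cells without S100A8/A9 and control cells a few synthetase genes differed, and the mitochondrial ones called were lower. In unstimulated against control cells, 4 of 30 genes were called: Wars was higher, and Mars2, Tars2 and Ears2 were lower. The family's share, 13.3%, stands beside 30.8% of all genes called in this comparison, of which 17.1% were higher and 13.7% lower. The median log2 fold change was -0.14 over the family and 0.00 over all genes.

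Mars2, which charges the mitochondrial methionine tRNA, showed the largest difference of the family. Its signals were 430.8 and 342.0 in unstimulated cells, against 751.6 and 812.4 in control cells, and 380.9 and 356.8 in stimulated cells. On the normalized log2 scale these were 8.38 and 8.10 in unstimulated cells and 9.48 and 9.35 in control cells. Both starved groups lay wholly below control. The log2 fold change was -1.18 ± 0.17 (SE, n = 2 each; limma adjusted p = 0.00170), or 2.26-fold lower. A second Mars2 probe also fell, with log2 values of 7.80 and 7.37 in unstimulated cells against 8.35 and 8.33 in control cells.

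Tars2, the mitochondrial threonine enzyme, had log2 values of 9.11 and 9.18 in unstimulated cells, against 9.64 and 10.03 in control cells. The groups did not overlap, and the difference was -0.69 ± 0.17 (SE, n = 2 each; limma adjusted p = 0.0151). Without control replicate 2 the difference was -0.49 with an adjusted p of 0.0929, and the call was also lost without unstimulated replicate 1 (0.0764) or 2 (0.0622). Ears2, the mitochondrial glutamate enzyme, had log2 values of 9.70 and 9.72 in unstimulated cells, against 10.20 and 10.28 in control cells. Here replicates were close, and the difference was -0.53 ± 0.14 (SE, n = 2 each; limma adjusted p = 0.0197). Its call was lost when either unstimulated or either control array was left out, with adjusted p between 0.0572 and 0.0901.

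Wars, the cytosolic tryptophan enzyme, which is known as an interferon-induced gene, was the one member called higher. Its log2 values were 10.31 and 10.33 in unstimulated cells, against 9.60 and 9.81 in control cells. The groups did not overlap, and the difference was 0.61 ± 0.16 (SE, n = 2 each; limma adjusted p = 0.0219). The call was lost without unstimulated replicate 1 (0.0840), without unstimulated replicate 2 (0.0953) and without control replicate 1 (0.116). Of the interferon-induced genes listed for comparison, 7 of 7 tested were higher in unstimulated cells, among them Ifit3 (3.73), Rsad2 (3.25) and Isg15 (2.13 log2). Sars, the serine enzyme (0.42, adjusted p = 0.0557), and Iars, the isoleucine enzyme (0.39, adjusted p = 0.0824), had the next highest estimates and did not pass here. Without background correction both passed (adjusted p = 0.0205 for Sars and 0.0343 for Iars), as they did in the authors' deposited log2 table (0.0207 and 0.0341), and Sars also passed with an offset of 50 (0.0333) and with detection on all 6 arrays (0.0428).

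**Figure D1:**
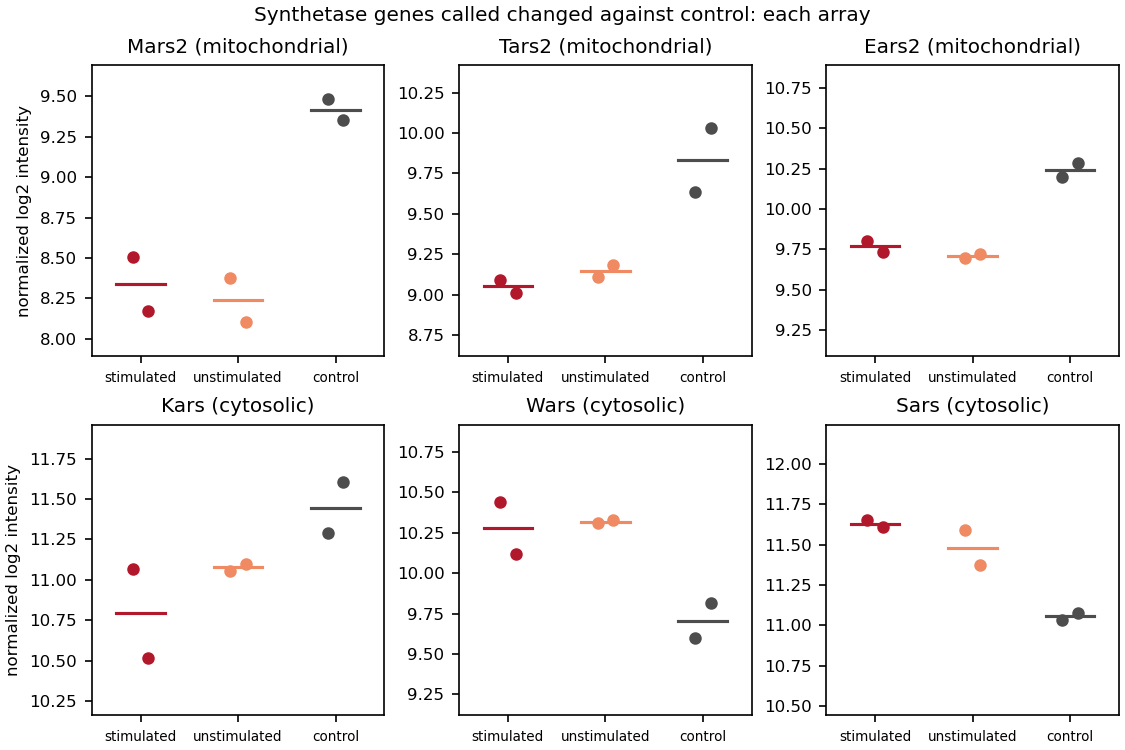
Normalized log2 intensity (y axis) of the 6 synthetase genes called against control, with 1 point per array and a line at the mean of each group of 2. Mars2, Tars2 and Ears2 lie below control in both the stimulated and unstimulated cells, while Wars and Sars lie above it. Each panel has its own range.

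The comparison of stimulated with control cells shares its control arrays with the one above, so the comparisons are not independent. In it, 6 of 30 genes were called (20%), beside 29.1% of all genes, of which 15.9% were higher and 13.2% lower. Wars and Sars were higher, and Mars2, Tars2, Ears2 and Kars were lower. The mitochondrial genes differed by -1.08 ± 0.17 for Mars2 (SE, limma adjusted p = 0.00246), -0.78 for Tars2 (0.00893) and -0.47 for Ears2 (0.0321).

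Sars had log2 values of 11.65 and 11.61 in stimulated cells, against 11.04 and 11.08 in control cells. The groups did not overlap, with a difference of 0.57 ± 0.15 (SE, n = 2 each; limma adjusted p = 0.0188). Wars differed by 0.58 ± 0.16 (adjusted p = 0.0289). Gars, the glycine enzyme, had 15.18 and 15.15 in stimulated cells, against 14.69 and 14.94 in control cells, and did not pass (0.35, adjusted p = 0.113). Kars, the lysine enzyme of the multisynthetase complex, had 11.07 and 10.52 in stimulated cells, against 11.29 and 11.61 in control cells. Its replicates spread widely, and the difference of -0.65 ± 0.20 (SE, n = 2 each; limma adjusted p = 0.0397) became -0.38 with an adjusted p of 0.206 without stimulated replicate 2. Its call was lost when any array but stimulated replicate 1 was left out (adjusted p from 0.0565 to 0.206). The Sars call was lost without any 1 of the stimulated or control arrays (0.0545 to 0.0808), the Wars call without stimulated replicate 1 or either control array (0.0501 to 0.148), and the Ears2 call without any array but unstimulated replicate 1 (0.0503 to 0.128). Tars2 lost its call without control replicate 2 (-0.58, adjusted p = 0.0572), and Mars2 was called whichever array was left out.

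**Figure D2:**
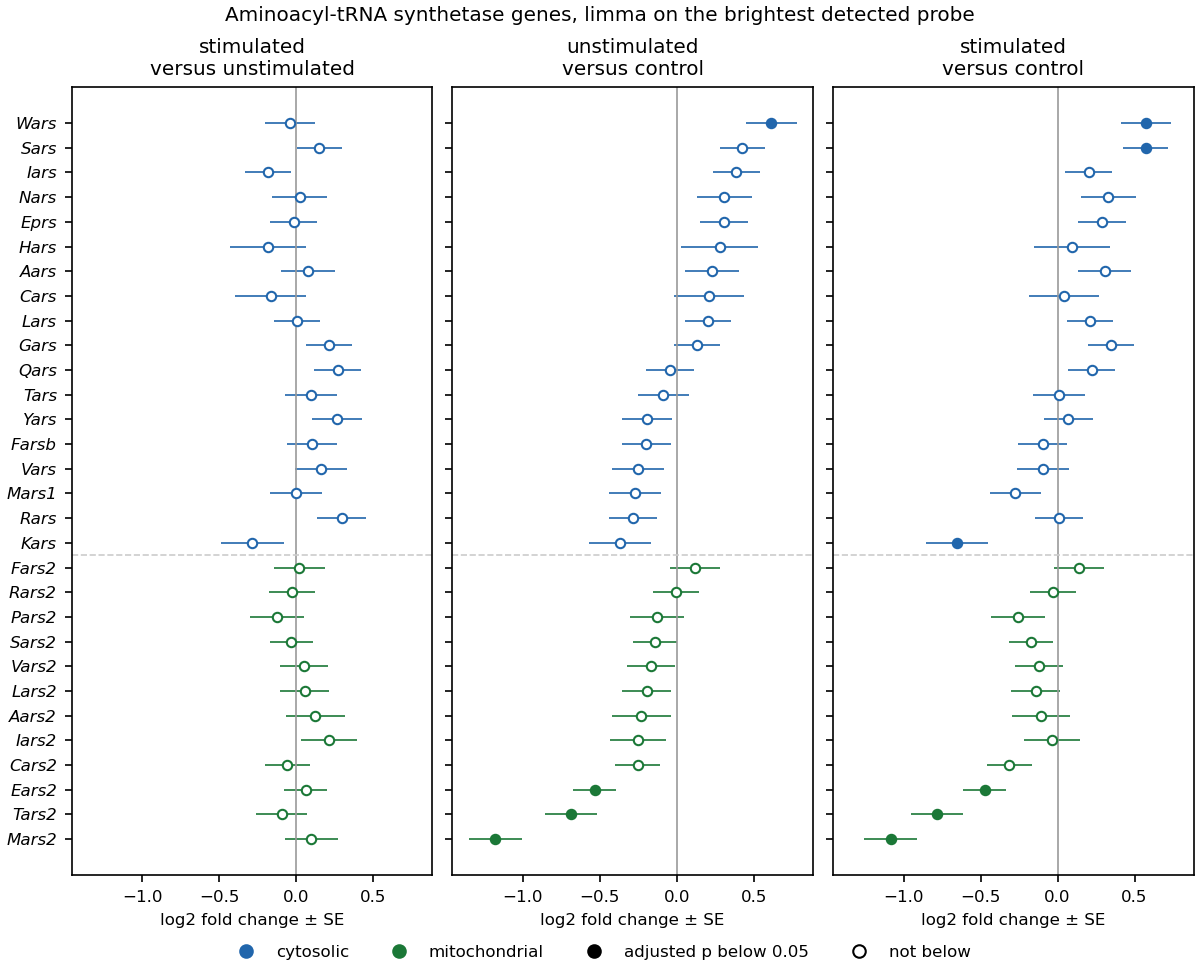
Log2 fold change with its standard error (x axis) for the 30 tested synthetase genes in the 3 comparisons, cytosolic genes above and mitochondrial genes below the dashed line. Filled points have an adjusted p below 0.05; none is filled for stimulated versus unstimulated cells, 4 for unstimulated versus control and 6 for stimulated versus control.

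Against control, mitochondrial estimates leaned below 0, while the cytosolic lean above 0 depended on the processing or on single arrays. The difference between compartments was not tested. In unstimulated against control cells, 11 of 12 mitochondrial estimates were below 0 (median -0.21), all but Fars2, the phenylalanine enzyme. Of the cytosolic estimates, 10 of 18 were above 0 (median 0.17). Over all genes tested, 50.1% of estimates were below 0 and 49.9% above, so the cytosolic count was near the share of all genes. In this comparison 3 mitochondrial genes were called lower (25%) and none higher, and 1 cytosolic gene was called higher and none lower. Over all genes tested, 13.7% were called lower and 17.1% higher. For stimulated against control cells the medians were -0.16 over mitochondrial and 0.15 over cytosolic genes. Here 3 mitochondrial genes were called lower, and 2 cytosolic genes were called higher and 1 lower. Over all genes tested, 13.2% were called lower and 15.9% higher. With median scaling that cytosolic median was 0.013, where the median of all genes was -0.11. Averaging the probes of each gene in place of the brightest one took the cytosolic median for unstimulated against control cells to 0.00. That median was also 0.088 without unstimulated replicate 1, 0.020 without unstimulated replicate 2, 0.013 without control replicate 1 and 0.068 without control replicate 2. After centring each gene, the cytosolic medians per array were -0.04 and -0.01 in unstimulated cells, against -0.07 and -0.03 in control cells, which lay close together. In stimulated cells they were 0.13 and 0.03, above both control arrays.

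Cytosolic genes were also split by a list of ATF4 targets, with no test of the difference. Of the 12 on the list, 9 had estimates above 0 in unstimulated against control cells (median 0.22), and 11 in stimulated against control cells (median 0.25). Over all genes tested, 49.9% and 49.2% of estimates were above 0 in these comparisons. Among the 6 tested cytosolic genes outside that list, 1 of 6 was above 0 in unstimulated cells (median -0.23), and 3 of 6 in stimulated cells (median -0.04). In stimulated against unstimulated cells the order was the other way, with medians of 0.01 on the list and 0.13 off it. Of the 5 genes with a CARE core, Aars, Gars and Iars had estimates of 0.23, 0.13 and 0.39 in unstimulated against control cells, and Tars and Yars -0.09 and -0.20. None of these 5 was called. The 7 tested genes of the multisynthetase complex had a median of -0.05 and no call in unstimulated against control cells, and a median of 0.20 with 1 call, Kars, in stimulated against control cells. Over all genes tested, 30.8% were called in unstimulated and 29.1% in stimulated against control cells.

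**Figure D3:**
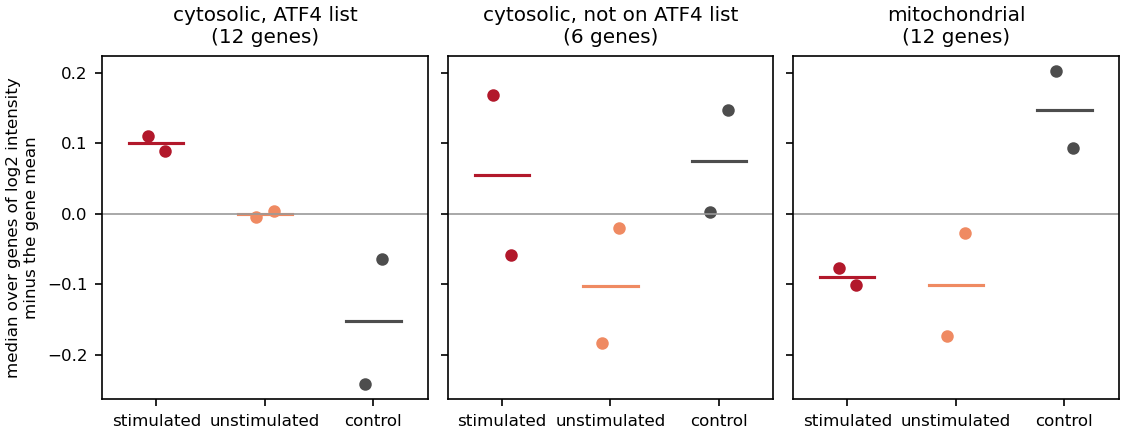
Median over the genes of a class of log2 intensity minus each gene's mean over the 6 arrays (y axis), with 1 point per array and a line at the mean of 2. The mitochondrial medians were -0.08 and -0.10 in stimulated cells, -0.17 and -0.03 in unstimulated cells, and 0.20 and 0.09 in control cells.

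Probes of the same gene did not always move together. Of 18 genes with more than 1 tested probe, the probes differed in sign in 5 for unstimulated against control cells (Cars, Iars, Qars, Rars2, Wars), in 4 for stimulated against control cells (Cars, Tars, Vars, Wars) and in 10 for stimulated against unstimulated cells. In unstimulated against control cells the Cars probes had log2 fold changes of 0.21 and -0.62, and the Iars probes 0.39, -0.03 and -0.24. Qars probes lay between -0.05 and 0.00, and Rars2 probes between -0.08 and 0.04. In stimulated against control cells the values were 0.01 and -0.10 for Tars, the cytosolic threonine enzyme, and -0.09, -0.22 and 0.16 for Vars, the valine enzyme. The 4 Wars probes had log2 fold changes of 0.61, 0.04, -0.04 and 0.45 in unstimulated against control cells, so a pair of estimates lay well above 0 and a pair near 0. In stimulated against control cells they were 0.58, 0.05, -0.02 and 0.52. Both Mars2 probes were called lower in both comparisons. In stimulated against control cells a second probe, detected on all 6 arrays, had 0.16 for Sars and -0.13 for Kars. Neither of these was called (limma adjusted p = 0.614 and 0.685, each probe fitted on its own). The Sars and Kars calls thus rest on the brighter probe alone. With every probe fitted on its own, Cars (-0.74, adjusted p = 0.0483) and Pars2 (-1.03, adjusted p = 0.0113) each had a second, dimmer probe called lower in stimulated against control cells. The probe used was not called in either gene, and Kars was not called (0.0545). In stimulated cells these dimmer probes were near background, with signals of 118.3 and 122.3 for Cars, and 101.3 (not detected) and 118.3 for Pars2.

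**Figure D4:**
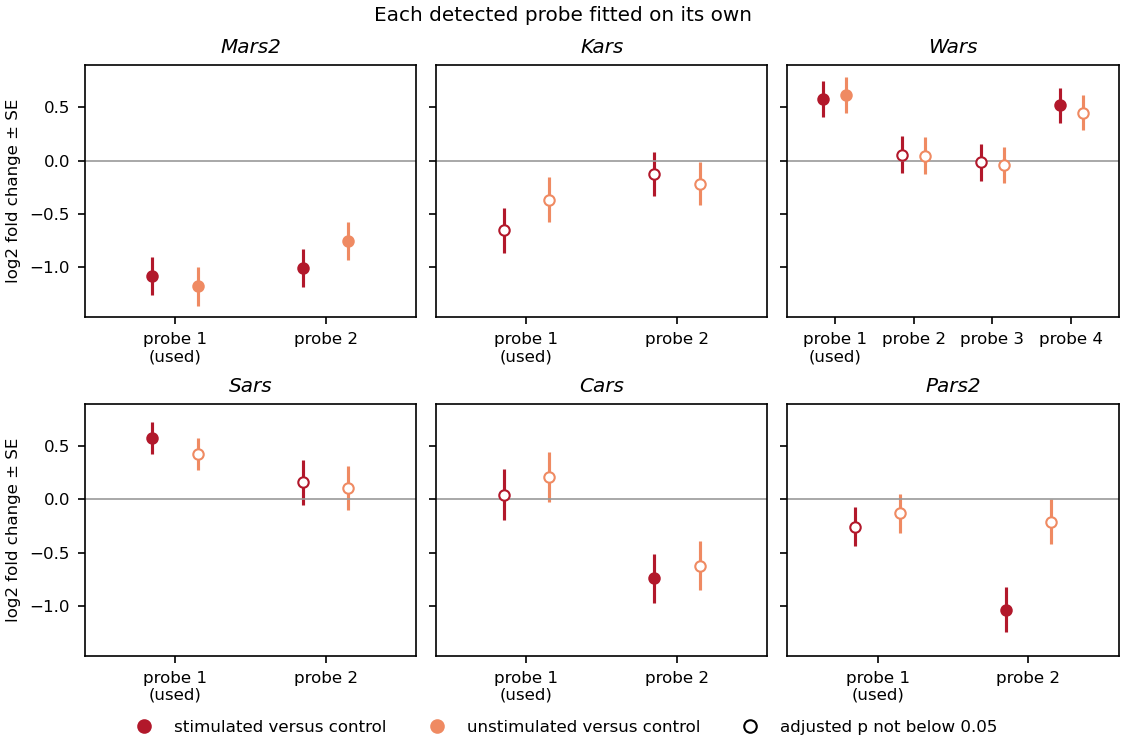
Log2 fold change with its standard error (y axis) of each detected probe of 6 synthetase genes, fitted on its own, for stimulated versus control and unstimulated versus control cells. Open points have an adjusted p that was not below 0.05; both Mars2 probes are filled in both comparisons, and Wars has a pair of probes near 0.

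Genes that work beside the synthetases were read from lists, to be set against 13.7% of all genes called lower in unstimulated and 13.2% in stimulated cells against control, and 17.1% and 15.9% called higher. Of 19 mitochondrial tRNA charging and translation genes, 7 were lower and 0 higher in unstimulated against control cells, and likewise 7 and 0 in stimulated against control cells. Pus1, a tRNA pseudouridine synthase, fell by 1.13 on the log2 scale (adjusted p = 0.000722) in unstimulated cells, and Mtif3, a mitochondrial initiation factor, by 0.93 (adjusted p = 0.00424). The Mtif3 call held there under all 15 alternatives fitted gene by gene, but its estimate ran from -1.02 to -0.45. The scaffold protein Eef1e1 fell by 0.73 (adjusted p = 0.00519), while Aimp1 (0.10) and Aimp2 (-0.26) did not pass. Tarsl2, a threonine synthetase-like gene, fell by 0.61, the only call among 5 tested synthetase-like and editing genes. That call was lost with median scaling, without unstimulated replicate 2 and without control replicate 1 (adjusted p from 0.0564 to 0.0859). Cytosolic elongation genes gave 2 lower of 8, Eif5a and Eef1d. Eif5a was -0.65 in unstimulated against control cells and -0.39 without unstimulated replicate 2 (adjusted p = 0.181), and it lost its call without either control array too. Eef1d lost its call there without either unstimulated array or without control replicate 2 (-0.35, adjusted p = 0.218).

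Of the amino acid stress genes, some were higher and none lower. In unstimulated against control cells 10 of 20 tested genes of the amino acid stress and ATF4 list were higher and 0 lower, led by Nupr1 (2.49), Ddit4 (1.71) and Atf5 (1.61 log2), and 8 were higher in stimulated against control cells. Atf4 itself (0.30, adjusted p = 0.199), its target Asns, the asparagine synthetase (0.28, adjusted p = 0.200), and Eif2ak4, the kinase that senses uncharged tRNA (-0.10, adjusted p = 0.805), did not pass. With the mean of detected probes Asns was called higher in unstimulated cells (0.43, adjusted p = 0.0339), and Asns (0.49, 0.0232) and Atf4 (0.50, 0.0301) in stimulated cells, each against control. Of 8 amino acid transporters, 4 were higher in each comparison, with Slc6a9 (1.65) and Slc1a4 (1.13) leading in unstimulated cells and Slc7a11 at 1.42 in stimulated cells. Of the MYC and growth genes, 6 of 10 were lower in unstimulated cells, among them Odc1 (-0.93), Polr1b (-0.84) and Nop56 (-0.79), and 5 in stimulated cells, while Myc (-0.31, adjusted p = 0.243) did not pass. In stimulated against unstimulated cells, 0 genes were called in any of these lists.

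**Figure D5:**
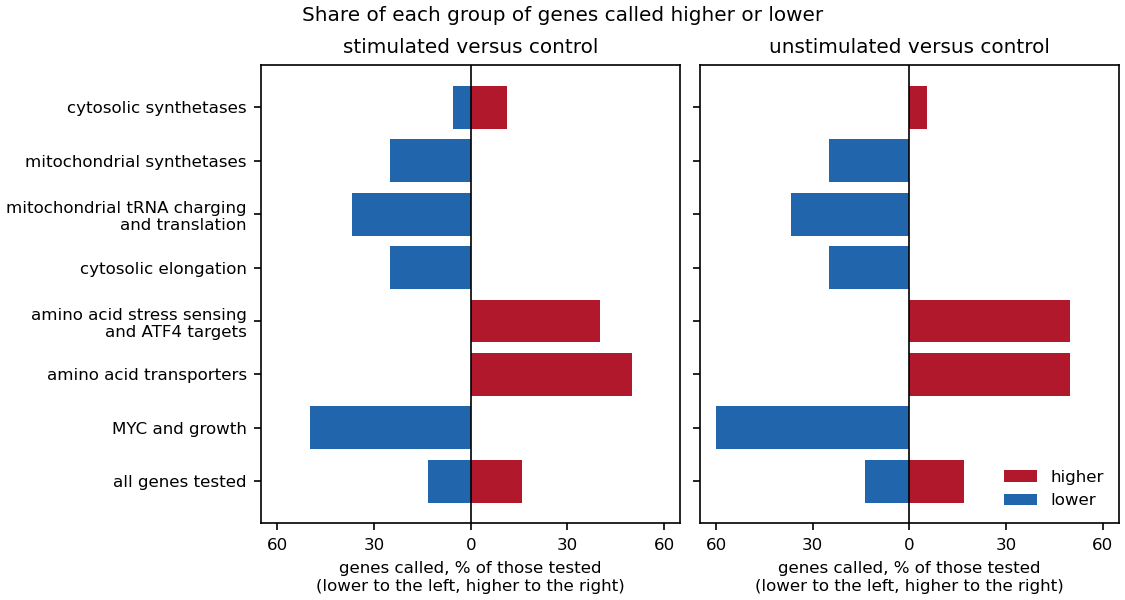
Share of tested genes called lower (left, %) or higher (right, %) at an adjusted p below 0.05, for the synthetase classes, the lists of neighbouring genes and all genes tested, in stimulated versus control and unstimulated versus control cells. Mitochondrial synthetases have 25% lower and none higher in each. Of all genes tested, 13.2% were lower and 15.9% higher in stimulated cells, and 13.7% lower and 17.1% higher in unstimulated cells.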

How the data were processed

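The 6 bead arrays of MC38 RNA were grouped by sample title. The deposited probe values are intensities on a linear scale, not normalized, and the deposited detection p-values stand beside them, per the file headers. The authors also deposited log2 values, and these equalled quantile-normalized log2 intensities without background correction to within 0.00984. The software that summarised the beads is not given in the labels or headers.

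Intensities were processed with limma 3.58.1 in R 4.3.3: neqc (normexp with negative controls inferred from detection p, offset 16), with quantile normalization of the intensities before log2. The annotation gave 1 gene symbol to 34885 of the 45281 probes, several to 18 and none to 10378. Probes with detection p below 0.01 on at least 2 of 6 arrays were kept, and the probe with the highest mean stood for its gene, giving 8909 genes. All 3 groups entered 1 fit (3 residual and 6.00 prior degrees of freedom), with Benjamini-Hochberg adjustment over all genes and calls at 0.05. The number of arrays limits the precision. Alternatives were no background correction, an offset of 50, median scaling, the deposited log2 table, other detection filters, other probe rules, the 4 arrays compared alone, a replicate block and leaving out each array.

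Genes given with values were those called, those whose probes differed in sign in a comparison with control, and the 3 highest and 3 lowest in each comparison; the 10 whose probes differed in sign in stimulated against unstimulated cells are only counted; from other lists, up to 3 called genes each and 7 fixed genes. The members and lists were chosen with earlier results of these data known. In all, 3 promoter motifs were searched, each on both strands, and all 3 are reported; the E-box and NRF1 motifs were added after values were seen. Promoters came from RefSeq, GRCm38.p6. Some items are not reported here. Figures were drawn with Python 3.11.15 and matplotlib 3.10.9.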

Additional observations from a re-analysis of the deposited data

How the results depend on the processing

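No synthetase gene was called in stimulated against unstimulated cells under any of the 16 alternatives. Mars2 kept its call under all 15 alternatives fitted gene by gene in both comparisons with control. The count of called genes in unstimulated against control cells, 4, ran from 1 to 4 when 1 array was left out and was 6 with no background correction and with the authors' log2 table, where Sars and Iars joined. In stimulated against control cells, 6, it was 3 with no detection filter and 3 with only the 4 arrays compared, and ran from 1 to 5 when 1 array was left out. Tars2 lost its call in stimulated against control cells only without control replicate 2. Wars lost its calls with the mean of detected probes (adjusted p = 0.168 and 0.147 in unstimulated and stimulated against control cells), Sars lost its call with median scaling (0.140) and the mean of probes (0.0957), Kars with the mean of probes (0.131), Wars in stimulated cells with median scaling (0.111), and Ears2 in unstimulated cells with median scaling (0.0694). Replicate numbers did not pair the arrays (r of replicate 1 minus replicate 2 differences of -0.02, -0.04 and -0.01); with the replicate block the counts were 0, 4 and 5, and Kars lost its call (0.0516). Median scaling moved the median of all genes to -0.13 in stimulated against unstimulated and -0.11 in stimulated against control cells. Over all genes, calls in stimulated against unstimulated cells were 7, against 44 with no background correction, 44 with the authors' log2 table, 36 with an offset of 50, 15 with median scaling, 17 with detection on all 6 arrays and 4 at the lowest with 1 array left out; with 1 array left out they fell as low as 1366 of 2746 in unstimulated against control and 1554 of 2589 in stimulated against control cells. Some uncalled estimates changed sign. In stimulated against unstimulated cells the mean of detected probes gave 0.14 for Iars, 0.13 for Atf4 and 0.054 for Asns, and leaving out 1 array gave ranges of -0.54 to 0.036 for Hars, -0.19 to 0.13 for Atf4, -0.10 to 0.42 for Myc, -0.22 to 0.025 for Asns and -0.14 to 0.040 for Aimp1. In unstimulated against control cells Eif2ak4 ranged from -0.12 to 0.36 with 1 array left out. In stimulated against control cells median scaling gave -0.00692 for Asns and -0.15 for Aimp1, and Aimp1 ranged from -0.016 to 0.12 with 1 array left out. The cause of these changes was not tested. Signal over background limits Hars and Eif2ak4, each detected on 2 arrays, and the dimmer Cars and Pars2 probes.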
